A study of Mus musculus with 6 samples.

Results

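Hk1 and Hk2 encode hexokinase 1 and hexokinase 2, and they are 2 of the 690 rows of the authors' deposited table. They were chosen by gene symbol, with earlier results of these data known that had their mean RPM higher with IL-22, so the difference between the groups is given as a description, with no test. Hk3 and Hkdc1, of the same enzyme family, are not among the 690. RNA-seq was done on enteroids, organoids grown from small-intestinal crypts, of C57BL/6J mice without necrotizing enterocolitis, in a study of what the cytokine IL-22 does in the neonatal gut epithelium. Every well spent 4 days in a differentiation medium with EGF, Noggin, R-spondin 1 and N-acetylcysteine. The control group was 4 untreated wells, a pair from each of 2 mice. The IL-22 group was 2 wells of 1 mouse, given recombinant mouse IL-22 for 24 hours, at 2 ng/ml per the labels and at 100 ng per the header of the authors' deposited table. The labels put the mice at 6 weeks of age, and the protocol speaks of adults of 8 weeks or neonates of 7 days. Wells of a mouse are technical replicates, and 1 treated mouse limits every statement below to these cultures.

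Hexokinases put a phosphate on glucose as it enters the cell, which traps it there and is the first step of glycolysis. Hk1 is the widely expressed member of the family, and Hk2 is the inducible member known from insulin-responsive muscle and fat and from tumours. Both enzymes can sit on the outer mitochondrial membrane, held there by their amino-terminal end. In the small intestine, absorptive enterocytes take glucose up from the lumen and pass it to the blood, and IL-22 signals in epithelial cells through STAT3.

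The starts of the coding sequences are shown because they encode that amino-terminal end and show how far the genes differ at the level of the reads. The first 63 bases (21 codons) of the longest protein-coding transcripts in GENCODE M21 shared 43 bases and differed at the 20 written in capitals.
Hk1-202: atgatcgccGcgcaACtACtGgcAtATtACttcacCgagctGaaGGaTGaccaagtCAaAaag
Hk2-201: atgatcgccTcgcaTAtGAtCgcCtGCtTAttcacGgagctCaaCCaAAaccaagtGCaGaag
Over the whole coding sequence, 1961 of 2754 aligned bases were identical (71.2%). Another Hk1 transcript, Hk1-203, begins with 70 bases of its own, shown because a table of gene totals cannot tell which start the enteroids used.
Hk1-203: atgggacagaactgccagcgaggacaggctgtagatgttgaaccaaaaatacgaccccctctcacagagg
Hk1 and Hk2 shared no word of 31 bases, and 98.5% of such words of Hk1 and 99.8% of those of Hk2 were in no other gene. The 127 shared words of Hk1 were in Hk1os, an antisense gene that overlaps it. The antisense gene Gm17034 overlaps Hk2, and no gene shares more than 8 such words with Hk2. No source used here says whether reads were counted by strand, and without strand the reads from the shared stretch of Hk1 and Hk1os, 127 of 8735 words of Hk1, cannot be told apart.

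Bases before the start sites are shown because both genes stood higher in the same libraries. They come from RefSeq's GRCm38.p6, and both genes lie on the minus strand. Each stretch was cut at its first base in an annotated exon of the gene. The capitals mark the letters ACGTG, the core of the element bound by hypoxia-inducible factors and part of the E-box, searched on both strands.
Hk2, chr6:82774455-82774704: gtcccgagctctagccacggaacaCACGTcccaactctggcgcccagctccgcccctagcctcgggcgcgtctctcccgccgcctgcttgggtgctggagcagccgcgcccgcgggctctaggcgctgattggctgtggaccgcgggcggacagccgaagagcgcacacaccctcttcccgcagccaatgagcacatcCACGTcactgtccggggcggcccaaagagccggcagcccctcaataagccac
Hk1, chr10:62340543-62340671: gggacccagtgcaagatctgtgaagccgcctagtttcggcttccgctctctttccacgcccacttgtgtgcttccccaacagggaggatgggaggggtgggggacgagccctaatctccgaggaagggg
The Hk2 window had 2 matches on the opposite strand, 226 and 52 bases before the start site. The Hk1 bases shown were cut short of the start site, and neither they nor the upstream bases cut off had a match. The 2 matches of that start site were at bases 8 and 17 after it, in the 24 bases written next.
Hk1, after the start: tccttACGTGgggaACGTGcaggg
A second, more upstream RefSeq start of Hk1 had no match. Of all 32851 windows of 250 bases before and 50 after a start, 19.6% had at least 1 match and 8.21% had 2 or more, so the letters are common. Among windows of listed genes the share was 23.1% of 251 for higher and 15.2% of 402 for lower genes. CACGTG and TTCNNNGAA, the letters of the E-box and of a STAT site, were in 7.15% and 8.30% of all windows and in none of the 3 hexokinase windows. Among windows of listed genes, CACGTG was in 9.16% for higher and 6.47% for lower genes, and TTCNNNGAA in 13.5% and 5.22%. A match describes letters and not binding.

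Both hexokinase transcripts were about 2-fold more abundant in the IL-22 libraries than in the controls. The authors' deposited table gives group means, their standard errors (SEM) and mean reads, from which the reads of each library were recovered. Values are in RPM, reads of the gene per 1000000 reads of the library. Libraries are numbered by depth, from 36577356 to 22648811 reads for control libraries 1 to 4, and 32466666 and 29876739 reads for IL-22 libraries 1 and 2. None can be tied to a mouse or a well.

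Hk1 (Entrez 15275, chromosome 10) had 395, 526, 239 and 437 reads in control libraries 1 to 4, which is 10.8, 14.9, 8.72 and 19.3 RPM. In the IL-22 libraries it had 1105 and 765 reads, or 34.0 and 25.6 RPM. The groups did not overlap, but the lowest IL-22 library was only 1.33 times the highest control. In the authors' deposited table the mean was 13.4 ± 2.34 RPM (SEM, n = 4) in controls and 29.8 ± 4.21 RPM (SEM, n = 2) with IL-22, a ratio of 2.22. On the log2 scale the difference was 1.15 ± 0.32 (SE).

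Hk2 (Entrez 15277, chromosome 6) had 1587, 1662, 966 and 1311 reads in control libraries 1 to 4, or 43.4, 47.2, 35.2 and 57.9 RPM. In the IL-22 libraries it had 3424 and 2770 reads, or 105.5 and 92.7 RPM. The gap between the groups was wider than for Hk1, with the lowest IL-22 library at 1.6 times the highest control. In the authors' deposited table the mean was 45.9 ± 4.70 RPM (SEM, n = 4) in controls and 99.1 ± 6.37 RPM (SEM, n = 2) with IL-22, a ratio of 2.16. On the log2 scale the difference was 1.11 ± 0.17 (SE), beside 1.15 for Hk1. These errors are between wells, some of the same mouse, and both genes were measured in the same libraries, so they are not independent. The authors chose the listed genes for a difference between these groups, so the lack of overlap adds nothing. How many other listed genes lack overlap was not counted. In whole-well RNA, a change in RNA per cell and a change in the share of cells of a type cannot be told apart.

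**Figure D1:**
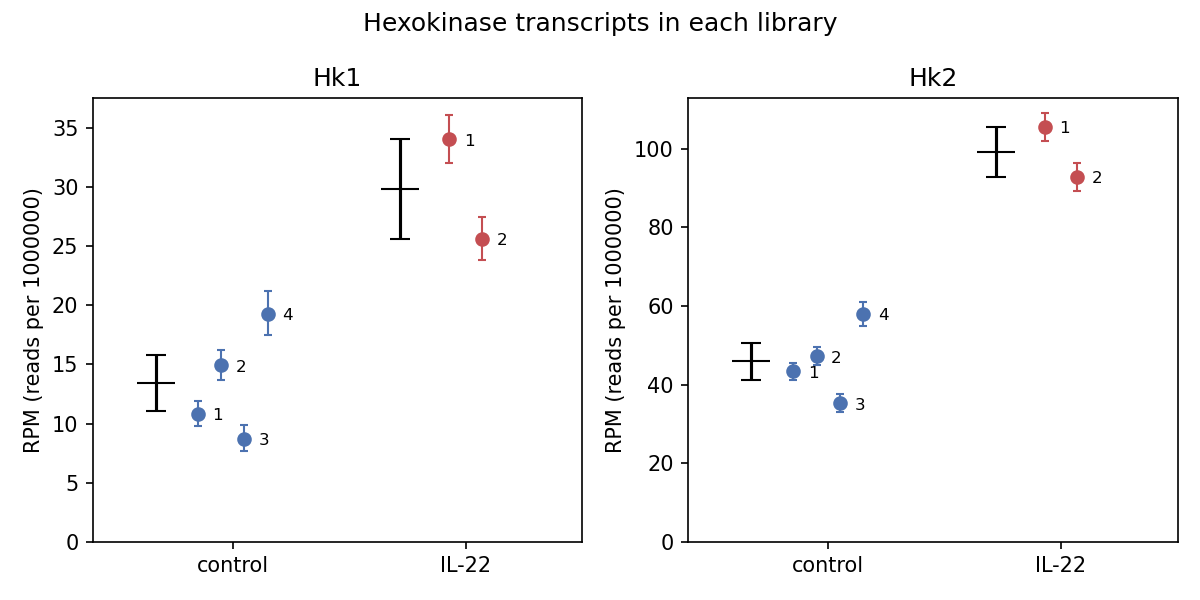
RPM of Hk1 (left) and Hk2 (right) in each of the 4 control and 2 IL-22 libraries, numbered by depth within a group. Coloured bars are 95% counting intervals and black bars are the deposited mean ± SEM. Control library 4 is the highest and library 3 the lowest control in both panels, and IL-22 library 1 is above IL-22 library 2 in both.

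The control libraries stood in the same order in both genes, with library 4 highest, then 2, then 1, and library 3 lowest. That spread was larger than counting error. The mean counting coefficient of variation (CV, the SD as a percent of the mean) was 5.16% for Hk1 and 2.74% for Hk2, against 34.8% and 20.5% between control libraries. Among the 406 listed genes with at least 100 mean control reads, the median control CV was 11.5%. Only 11 of them (2.71%) had a larger control CV than Hk1, and 42 (10.3%) had a larger one than Hk2. The listed genes were selected partly for a small spread, and the median control CV was 13.3% for the 122 higher and 11.0% for the 284 lower genes of that depth. The 2 IL-22 libraries were closer together for Hk2, where the higher was 1.14 times the lower, than for Hk1, where it was 1.33 times.

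The order of the hexokinases was found in other genes too. Of listed genes with at least 100 mean control reads whose libraries could be recovered, 29 of 100 higher genes (29%) and 5 of 202 lower genes (2.48%) had the same order of controls. Hk1 and Hk2 are among the 29. Library 4 is the shallowest control library, and its part in the spread of the hexokinases was not tested beyond leaving it out. Without it the ratio was 2.60 for Hk1 and 2.36 for Hk2. Without control library 3 it was 1.99 for Hk1 and 2.00 for Hk2, and without IL-22 library 1 it was 1.91 for Hk1 and 2.02 for Hk2. Hk2 therefore stayed at 2-fold or more without any single library, and Hk1 did not without control library 3 or without IL-22 library 1. Of the 208 higher genes with recovered libraries, 172 stayed at 2-fold or more without any single library (82.7%), as did 172 of 250 lower genes (68.8%). Reads summed per total depth gave a count ratio of 2.29 for Hk1 (95% counting interval 2.14 to 2.45) and 2.19 for Hk2 (2.11 to 2.27).

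**Figure D2:**
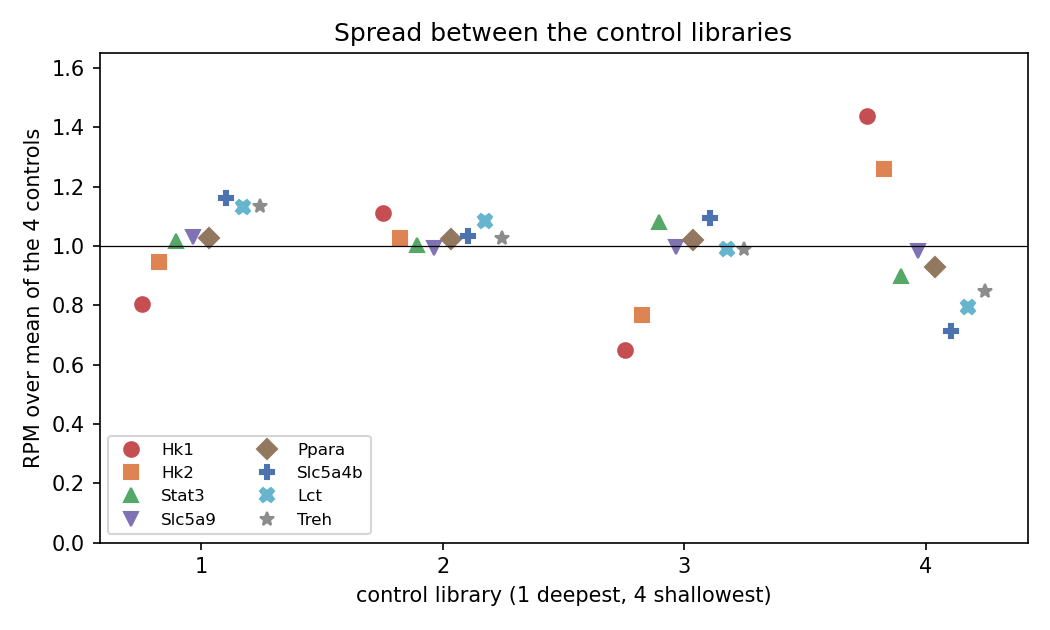
RPM in each control library over the mean of the 4 controls, for Hk1, Hk2 and 6 of the 10 other listed genes of glucose use or enterocytes with recovered libraries. Hk1 and Hk2 are highest in library 4 and lowest in library 3, whereas all 6 others shown are lowest in library 4. These include Stat3 and Slc5a9, which were higher with IL-22. Of the recovered genes not shown, Pdk2 and Pmm1 are lowest in library 3, and Slc5a4a and Pck1 in library 4. The line at 1.0 is the control mean.

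Levels of the pair were compared per kilobase of transcript (4.278 kb for Hk1-202 and 5.513 kb for Hk2-201). Hk2 was the more abundant in every library. Hk1 was at 3.14 ± 1.09 RPM per kb (SD, n = 4) in controls and at 7.96 and 5.99 RPM per kb in the IL-22 libraries. Hk2 was at 8.33 ± 1.71 RPM per kb (SD, n = 4) in controls and at 19.1 and 16.8 RPM per kb with IL-22. The level of Hk2 per kilobase was 2.33 to 3.14 times that of Hk1 in the controls and 2.40 and 2.81 times in the IL-22 libraries. The IL-22 values lay inside the range of the controls, so no shift between the genes was detectable with these wells. Hk2 made up 70.0% to 75.8% of the pair in controls and 70.6% and 73.8% with IL-22. The size of the ratio depends on the length used, since with the union of all annotated exons, 8.532 kb for Hk1 and 5.969 kb for Hk2, the level of Hk1 was 0.205 of that of Hk2 in controls, against 0.377 with the transcripts above.

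**Figure D3:**
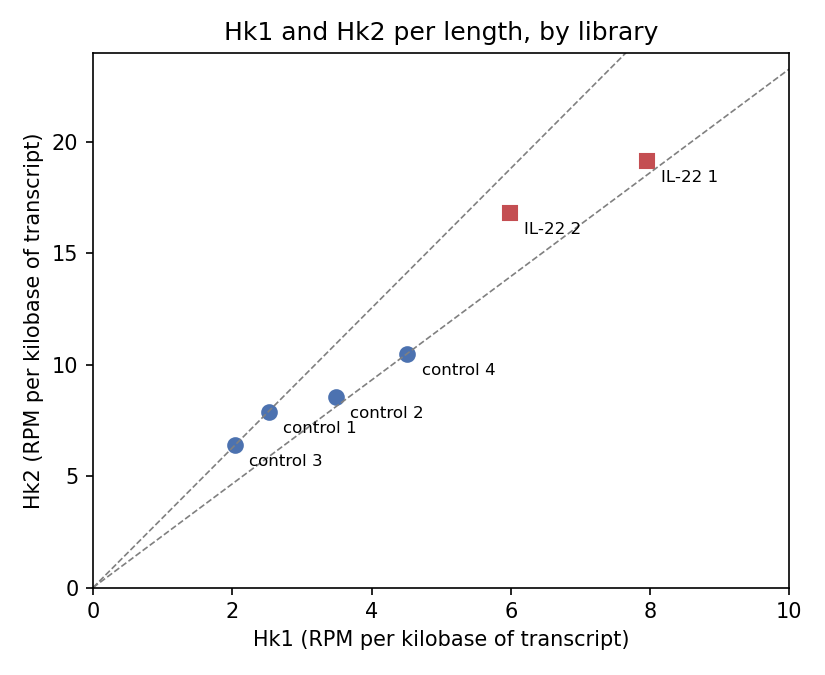
Hk2 against Hk1 in RPM per kilobase of transcript, with 1 point for each library (circles, control; squares, IL-22). The dashed lines mark the lowest and highest Hk2 over Hk1 among controls (2.33 and 3.14), and both IL-22 points lie between them.

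Both hexokinases stood near the threshold of the list. In the authors' deposited table, 267 of the 690 genes were higher with IL-22 (38.7%) and 423 lower (61.3%), each by 2-fold or more. Ordered by ratio among the 267, Hk1 was number 219 and Hk2 number 228. The smallest ratio of a higher gene in the authors' deposited table was 2.00, for Ampd3, and genes under 2-fold are not listed. Just around Hk1 were Rbm20 and Flot2, and around Hk2 were Zdhhc17 and Runx1. The listed genes whose control and IL-22 levels lay nearest to those of Hk1, by distance between the 2 log2 group means, were Slc28a3 (0.0957), a nucleoside transporter, Mfsd2 (0.243) and Adamts15 (0.338). Nearest to Hk2 were Apobec3 (0.115), a cytidine deaminase that restricts retroviruses, Pfkfb3 (0.147) and S100a11 (0.321). These distances rest on 2 group means in RPM and not on length-corrected levels.

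Of 146 genes in 12 lists, 19 were listed, 6 of them higher, and without Hk1 and Hk2 the count was 4 higher and 13 lower. That is 23.5% higher, beside 38.7% of all listed genes. The median log2 difference of the 19 was -1.14, and that of all listed genes was -1.12. No listed gene came from the lists for the pentose phosphate pathway (8 genes), glycogen (11), the citric acid cycle (19) and the mitochondrial outer membrane partners of hexokinase (5). The list holds 690 rows, not all of them protein-coding, beside 21951 protein-coding genes in GENCODE M21. At so small a share, none listed from a list of such a size says little. The lists were also chosen with earlier results known, so these counts and those of each list below are descriptions only. A gene missing from the list may still have differed. Of the 690, 13.2% were higher by 4-fold or more, and none of the 6 was. Of the 690, 13.6% higher and 7.97% lower passed when the authors' p was adjusted over every protein-coding gene, with genes outside the list given the largest possible p, so that these shares are lower bounds. Slc5a9 among the 6 and Fbp1, Pklr and Ppara among the 13 passed that bound. The authors' p rests on the spread between wells, which came from 2 control mice and 1 treated mouse. Passing therefore says nothing about the spread between mice, and the same contrast chose the listed genes. Hk1 and Hk2 did not, and since the bound can only miss genes, it decides nothing about them.

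Of 8 genes of glucose release and gluconeogenesis, 3 were listed, each as lower, beside 61.3% lower among all 690. G6pc encodes the catalytic subunit of glucose-6-phosphatase, which takes off the phosphate that hexokinase puts on. Per the authors' deposited table it stood at 109.6 ± 7.37 RPM (SEM) without and 28.7 ± 4.40 RPM with IL-22, 3.81-fold lower. Fbp1, the fructose bisphosphatase of gluconeogenesis, stood at 101.3 ± 3.69 and 17.6 ± 2.77 RPM there, 5.77-fold lower in means that the authors' deposited table gives. Pck1, phosphoenolpyruvate carboxykinase, was low throughout, at 1.41 to 2.19 RPM in the 4 controls and 0.308 and 0.10 RPM with IL-22. The other 5, among them G6pc3, were not listed.

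Of 7 other sugar kinases, 2 were listed, each as lower, beside 61.3% lower among all 690. Both act on fructose and its products. Khk, ketohexokinase, which starts fructose breakdown, had control and IL-22 means of 167.5 ± 9.44 and 59.3 ± 17.6 RPM per the authors' deposited table, 2.83-fold lower. Tkfc, the triokinase of the same route, is listed by the authors' deposited table under its older symbol Dak and was 2.20-fold lower. In IL-22 library 1 taken alone, Tkfc was less than 2-fold lower.

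Of 12 hexose transporters, 4 were listed, 1 as higher and 3 as lower, beside 38.7% higher and 61.3% lower among all 690. Slc2a2 encodes the low-affinity hexose transporter of the basolateral membrane and had a 2.20-fold lower mean per the authors' deposited table. Slc5a4a and Slc5a4b, of the sodium/glucose cotransporter family, had means 6.03-fold and 12.1-fold lower per the authors' deposited table. Slc5a9, a sodium-dependent mannose and glucose transporter, was at 15.5 to 16.2 RPM in the controls and 35.1 and 37.3 RPM with IL-22. It showed the tightest controls of the recovered glucose-use genes, unlike Hk1 and Hk2.

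Past the hexokinase step, Pfkfb3 was higher and Pklr lower. Pfkfb3 makes an activator of phosphofructokinase, and the authors' deposited table has it at 46.9 ± 5.63 RPM without and 109.5 ± 4.55 RPM with IL-22, a ratio of 2.33. Pklr, the pyruvate kinase of liver and gut, had means of 865.3 ± 14.6 and 432.4 ± 33.6 RPM per the authors' deposited table, at the threshold of 2-fold. The other 19 of 22 genes of glycolysis below hexokinase were not listed. Pdk2, a kinase that switches off pyruvate dehydrogenase, and Pmm1, a phosphomannomutase, had means 2.22-fold and 2.26-fold lower per the authors' deposited table. In IL-22 library 1 taken alone, Pklr, Pdk2 and Pmm1 were each less than 2-fold lower.

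Of 21 regulators, 3 were listed. Stat3, the transcription factor downstream of IL-22, was at 32.1 to 38.6 RPM in the controls and 98.2 and 83.6 RPM with IL-22. Bnip3, a mitophagy receptor induced in hypoxia, has a ratio of 2.24 in the authors' deposited table, with 89.1 ± 19.4 RPM for controls and 200 ± 12.8 RPM for IL-22. Its control CV of 43.6% was larger than that of Hk1, and that of Pfkfb3 was 24.0%. Ppara, the nuclear receptor of fatty acid oxidation, was at 85.7 to 94.6 RPM in the controls and 45.1 and 41.8 RPM with IL-22.

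**Figure D4:**
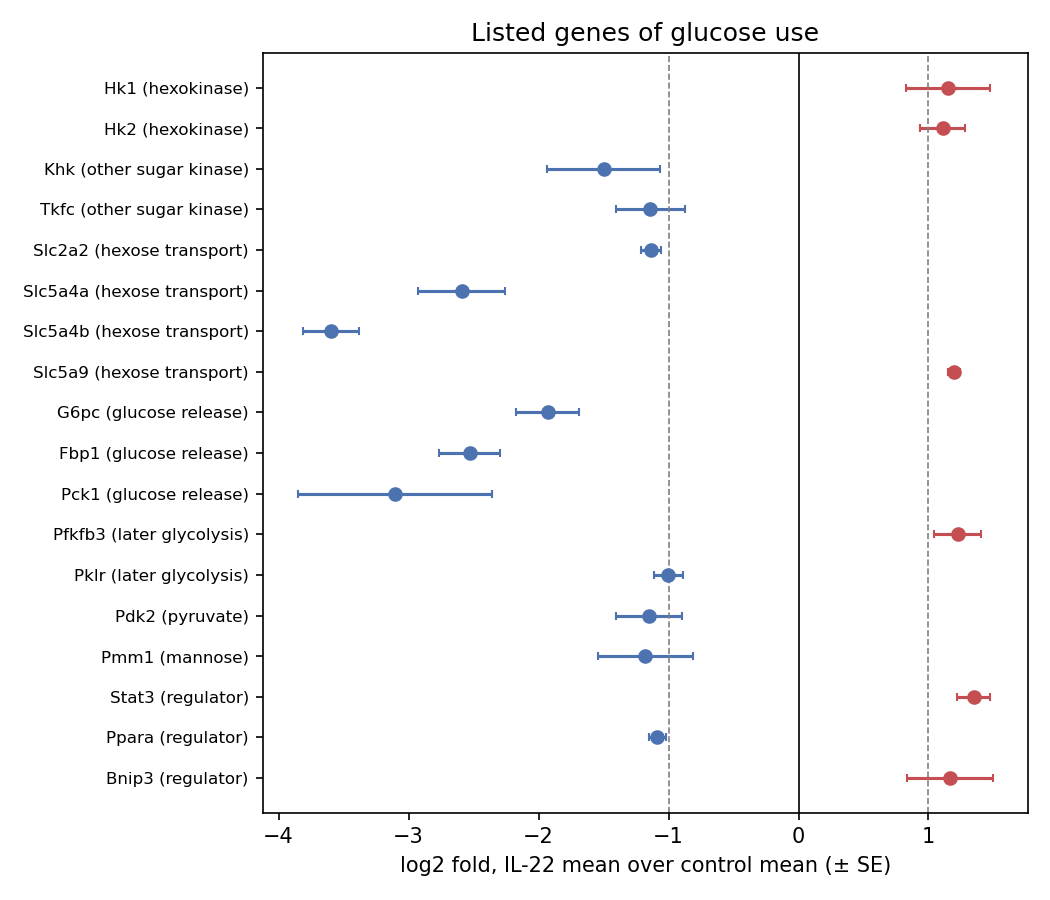
Log2 ratio of the IL-22 mean to the control mean, with its SE, for 18 of the 19 listed genes of the glucose-use lists, in order of their role (red, higher; blue, lower). The dashed lines mark 2-fold in each direction, no gene lies between them because the table has none, and the 6 higher genes lie close together from 2.16-fold to 2.54-fold while the 12 lower ones shown reach 12.1-fold.

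The authors' deposited table attaches 136 annotation terms to Hk1 and 96 to Hk2, of which 81 are shared (59.6% of those of Hk1 and 84.4% of those of Hk2). Under its term for glycolysis stand 5 listed genes, with Hk1 and Hk2 higher and the other 3, Pklr and Ppara among them, lower. Under glucose metabolic process 3 of 12 are higher, the pair and Ppp1r3b, a glycogen-targeting phosphatase subunit. Under mitochondrial outer membrane 4 of 8 are higher, namely Hk1, Hk2, Bnip3 and Tmem173. Both counts include the pair and stand beside 38.7% higher among all 690.

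Of 11 markers of absorptive enterocytes, 7 were listed, all lower, beside 61.3% lower among all 690 listed genes. The summed level of 6 of them (Alpi, Apoa4, Fabp2, Sis, Lct and Treh) was 7477 RPM in the control means and 3283 RPM in the IL-22 means, 0.439 of the control sum. Sis alone made up 5581 and 2494 RPM of these sums. Every listed lower gene is lower by 2-fold or more, so a low ratio of these sums was fixed by the list. It is no measure of enterocyte content, and the other 4 of the 11 markers have no values here. Single markers ranged from 2.07-fold lower (Apoa4) to 13.1-fold lower (Lct). Lct and Treh were lowest in control library 4, as were 57.9% of the 202 lower genes with recovered libraries and at least 100 mean control reads. Treh, trehalase, stood there at 34.2 RPM and at 39.8 to 45.7 RPM in the other controls, and Lct, lactase, at 24.9 RPM beside a control mean of 31.3 RPM. The part of enterocyte content in the hexokinase values was not tested. No gene was listed from the marker lists for epithelium in general (9 genes), proliferating crypt cells (10), blood cells (13), mesenchyme and muscle (11) or endothelium and nerve (8). For these lists a table of selected genes gives no level by which to check the labelled tissue, unlike for the enterocyte markers above.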

How the data were processed

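Polyadenylated RNA of 6 wells was sequenced as single reads after 15 cycles of PCR, per the labels' protocols. Per the submitters' processing notes BWA 0.5.9 and Picard 1.58 were used. Build, annotation and counter: not given in the sources used here. Deposited by the authors was a table that holds group means in RPM (the unit was inferred from the values), SEMs, mean reads, the ratio or fold of the means, and p-values with a Benjamini-Hochberg adjustment, for the 690 genes that the authors selected. No column of an unmapped sample was found.

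Hk1 and Hk2 and all gene lists were chosen with earlier results of these data known. Named genes are the pair, listed members of the glucose-use lists, the 3 nearest genes by log2 group means other than gene models (AA467197, near Hk1, was left out as one after it was seen), and the neighbours in fold. Some genes that this rule names are counted but not reported singly here. Other genes, such as Ampd3 and those under annotation terms, were named after their values were seen.

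Library totals were fitted from rows with few reads, since values there are whole multiples of 1 read. For each row with up to 16000 reads summed over the control libraries, all whole-read counts matching the mean, the SEM and the mean reads were searched. The relative depth tolerance of 2e-07 was chosen after several were tried. Of 622 rows, 576 had 1 solution and 46 several. Hk1 and Hk2 had 1 each. Of the glucose-use genes, Slc2a2, G6pc, Fbp1, Pfkfb3 and Bnip3 had several, so no single control values are given for them. IL-22 values were accepted within 0.05 of a whole read. The search was tested on simulated data. Recovered values depend on the mean, SEM and reads being as printed. A count of 3 reads is 0.0820 to 0.132 RPM. Counting intervals (95%) were exact conditional binomial for the count ratios and exact Poisson for single libraries. They hold for counting error alone, because reads after PCR are not independent molecules. Standard errors of log2 ratios were propagated from the SEMs. Transcripts and overlaps came from GENCODE M21 and windows from RefSeq. The analysis of control order, the motifs, and the minimum of 100 reads were chosen after seeing the data. Python 3.11.15, NumPy 2.4.6, SciPy 1.17.1 and pandas 2.3.3 were used.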

Additional observations from a re-analysis of the deposited data

Results flagged for a closer look

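Ppara had 1 control library apart from the rest. Control library 4 was at 85.7 RPM and the other 3 at 94.1 to 94.6 RPM, a gap of 0.948 of the range and above Dixon's 95% critical value for 4 samples. It was the only one of 12 genes with recovered control libraries (Hk1 and Hk2 included) that passed this limit. Chance alone gives about 1 in 20 for each gene. The 12 genes were measured in the same libraries, so 1 of 12 cannot be weighed against that rate, and no departure from chance is claimed. Library 4 was also the lowest control for 57.9% of 202 lower genes with at least 100 mean control reads, and why was not tested. The limit takes the 4 wells as independent, whereas they are pairs of wells from 2 mice.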

How the results depend on the processing

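No paired analysis was possible because the recovered libraries carry no mouse or well, so the planned block of same-numbered wells was not run. Leaving out each library in turn, the ratio ranged from 1.91 to 2.60 for Hk1 and from 2.00 to 2.36 for Hk2. Both stayed higher with the reads of Reg3b and Reg3g left out of the totals (2.33 and 2.26), with 1 RPM added (2.14 and 2.13) and with 5 RPM added (1.89 and 2.04). The level of Hk1 per kilobase over that of Hk2 was 0.377 in controls and 0.388 with IL-22. It moved to 0.205 and 0.211 with the union of exons and to 0.292 and 0.301 with coding length, because the annotated lengths differ.

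The 6 higher glucose-use genes became 0 at 4-fold and 1 (Slc5a9) with the authors' p adjusted over the 21951 protein-coding genes of GENCODE M21. The 13 lower genes became 4 (Slc5a4a, Slc5a4b, Fbp1 and Pck1) and 3 (Fbp1, Pklr and Ppara). The authors' p rests on the spread between wells, so the counts by p say nothing about the spread between mice. At least 10 mean reads left 6 and 11, 1 RPM added left 6 and 11, and the totals without Reg3b and Reg3g left 6 and 12, the lost one being Pklr. Leaving out IL-22 library 1 took the ratio of Hk1 under 2-fold, to 1.91. Leaving out IL-22 library 2 left Tkfc, Pklr, Pdk2 and Pmm1 less than 2-fold lower. Each of these ratios rests on 1 IL-22 library. Leaving out 1 control library was added after seeing the data and covers the 4 higher and 6 lower genes with recovered libraries. It left 3 or 4 of these higher and all 6 lower genes, the lost gene being Hk1. Depth limits Pck1 and Slc5a4a, with 6.5 and 9 mean reads with IL-22.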

Other observations

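Control library 4, in which Hk1 and Hk2 were highest, also stood at an end of the control range for many other listed genes. With at least 100 mean control reads, it was the highest control for 42% of 100 higher genes and 9.41% of 202 lower genes, and the lowest control for 26% and 57.9%. These counts were made after the order in the hexokinases was seen, and no test was made.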
